A study of Schizosaccharomyces pombe with 4 samples.

Results

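The 10 genes described here serve the uptake of nitrogen sources and their breakdown in fission yeast (Schizosaccharomyces pombe). They were picked by name: the ammonium transporter genes amt1 and amt2, the amino acid permease genes isp5, put4, cat1 and aat1, the oligopeptide transporter gene isp4, the uracil permease gene fur4, and 2 catabolic genes, car1 (arginase) and uga1 (GABA transaminase). The choice was made with earlier results of these data known. Each gene was matched through its current symbol in the platform's probe table. All 10 of 10 names were measured, out of 2899 genes with a named probe set. The name car1 is also an older name of bsu1, a vitamin B6 transporter gene, which was left out because car1 is now the symbol of the arginase gene. Each of the 10 genes had 1 probe set, and 0 of these carried the suffixes that Affymetrix gives to probe sets shared between transcripts.

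Messenger RNA was measured on 4 Affymetrix arrays, 1 for each combination of 2 genotypes and 2 times. Diploid cells were moved into meiosis by taking nitrogen away, and were sampled 1.5 h and 3 h later. Wild-type and deletion cells were all h+/h- diploids that carried the ade6 alleles 210 and 216 together and were heterozygous for his5-303 and for leu1-32. The deletion diploid additionally lacked ura4 at its own locus on both homologues (ura4-D18) and carried ura4+ in place of both copies of pht1, which encodes H2A.Z. No group has a replicate, so differences of 1 array minus 1 array have no replicate check, and the labels do not say whether the 2 times of a genotype came from 1 culture. No array of cells before nitrogen withdrawal was analysed here, so the values compare starved cells with starved cells and say nothing of induction by starvation itself.

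Fission yeast cells grown on ammonium keep the genes for poorer nitrogen sources low. When nitrogen runs out, the nutrient-sensing kinase complex TORC1 loses activity, permeases for amino acids, peptides and ammonium are made and kept at the cell surface, and intracellular amino acids are recycled. The same starvation signal lets diploid cells leave the mitotic cycle and enter meiosis. H2A.Z is a variant of histone H2A that the SWR1 complex places mainly in nucleosomes beside gene starts.

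The deposited values are on a log2 scale, made by RMA, which corrects the background, equalizes the arrays' distributions and summarises the probes of each set. A difference of 1 log2 unit is 2-fold. A floor was set at the 25th percentile of each array. It was 10.12 and 10.13 in the wild-type arrays and 10.10 and 10.08 in the deletion arrays. In counts of genes above the floor, a difference was counted when the higher of its arrays lay above its floor. Counts and medians over all 10 genes, or over all measured genes of a list, took no floor. The genotype difference at 3 h minus that at 1.5 h, over genes above the floor at both times, put the spread of a difference between 2 arrays at 0.22 log2 units, which contains any true interaction of genotype with time. The pht1 probe set checked the labels, with 12.70 and 12.86 in wild type against 7.37 and 7.36 in the deletion. The ura4 probe set was at 12.70 and 12.38 in wild type against 12.00 and 11.89 in the deletion. Of 8 meiotic marker genes, all 8 read higher in the deletion at both times, by 0.64 to 4.33 at 1.5 h and by 0.10 to 1.13 at 3 h. Among those above the floor on every array, mei2, which drives entry into meiosis, was at 13.35 and 14.05 in wild type against 13.99 and 14.17 in the deletion, and ste11, of the starvation-induced transcription factor, was higher in the deletion by 0.99 and 0.10. The meiotic chromosome gene hop1 was higher by 2.02 and 0.41 and spo5 by 4.33 and 0.78, each from a wild-type reading under the floor at 1.5 h. The values of rec8, of meiotic cohesin, were under the floor in both genotypes at 1.5 h (8.44 and 10.04), and at 11.70 and 11.96 at 3 h. The starvation-induced vacuolar protease gene isp6 was at 14.17 and 14.24 in wild type against 14.24 and 14.21 in the deletion. Of the other starvation markers, psp3 differed by 0.09 and -0.01, while isp7 was lower in the deletion, by -0.34 and -0.68. The part of these marker differences in the nitrogen gene values was not tested. In these cells 6 of the 10 nitrogen genes were above the floor on every array, amt1, cat1 and uga1 on some, and aat1 on none.

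**Figure D1:**
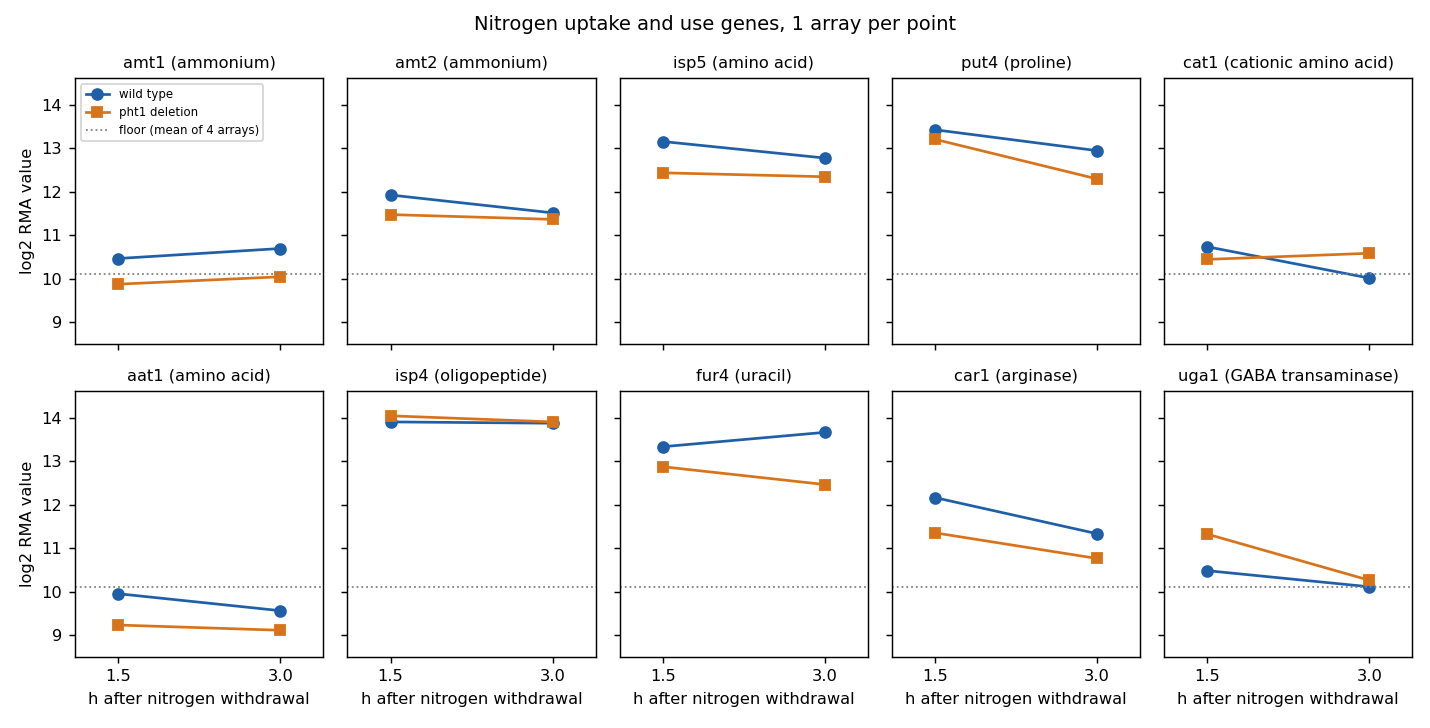
Log2 RMA value (vertical axis) of each of the 10 genes against hours after nitrogen withdrawal, with blue circles for wild type, orange squares for the pht1 deletion, 1 array per point and a dotted line for the mean floor of the 4 arrays. The deletion lies below wild type at both times for amt1, amt2, isp5, put4, aat1, fur4 and car1, and the lines of cat1 cross.

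Most of the 10 genes were lower in cells without H2A.Z. The arrays hold RNA of whole cultures, so fewer cells with a transcript and less of it per cell cannot be told apart. At 1.5 h the deletion was lower for 8 of 10 and higher for isp4 and uga1, with a median difference of -0.45 log2 units against -0.031 over all 2899 genes. At 3 h it was lower for 7 of 10 and higher for isp4, uga1 and cat1, with a median of -0.44 against -0.014. The 7 genes lower at both times were amt1, amt2, isp5, put4, aat1, fur4 and car1. For amt1, isp5, aat1, fur4 and car1 the difference was larger than the 0.22 spread at both times, with aat1 below the floor on every array. The share of all genes that pass the spread in this way was not computed.

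These counts can be set beside those over all genes, as a description. The members were chosen with earlier results of these data known, so such shares are no independent evidence. Of the 9 members above the floor (all but aat1), 7 were lower at 1.5 h, where 56% of 2331 genes were lower by any amount, and 6 of 9 at 3 h, where 52.4% of 2337 were. The sizes were modest. At 1.5 h, 0 of 9 differed by 2-fold, as did 3.47% of all genes above the floor, while amt1, isp5 and car1 were at least 1.5-fold lower (3 of 9, against 4.5% of genes) and uga1 was at least 1.5-fold higher (1 of 9, against 4.85%). At 3 h, 1 of 9, fur4, differed by 2-fold (2.74% of genes) and 3 of 9, amt1, put4 and fur4, were at least 1.5-fold lower (3.25% of genes).

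**Figure D2:**
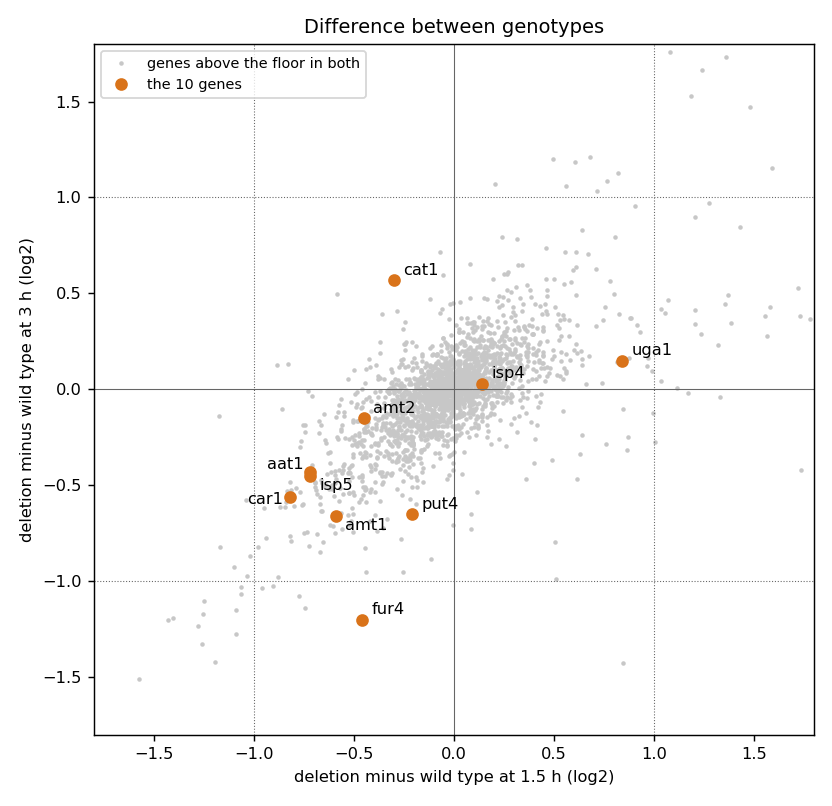
Deletion minus wild type in log2 units at 1.5 h (horizontal axis) and 3 h (vertical axis), with grey points for the 2268 genes above the floor in both comparisons, of which 30 lie outside the axes, orange points for the 10 genes and dotted lines at a 2-fold difference. Of the 10 genes, 7 lie below 0 on both axes, fur4 alone passes the lower dotted line, and cat1 lies in the upper left, lower at 1.5 h (-0.30) and higher at 3 h (0.57).

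A fit of genotype and time as additive terms over 2314 genes, made with limma, tested the genotype difference common to both times. Its 1 residual degree of freedom per gene holds array noise and any interaction, so a p-value from it reflects how these 4 arrays scatter and says nothing of other cultures. It called 0 of the 9 members tested at an adjusted p of 0.05, where 2.12% of all genes were called, and aat1 was not tested because it lay below the floor. At an unadjusted p under 0.05, 6 of the 9 passed, beside 26.6% of all genes. The nearest to the threshold was car1, lower by an estimated -0.69 (SE 0.10, adjusted p = 0.0604 by limma). Next came amt1 at -0.62 (SE 0.10, adjusted p = 0.0729 by limma) and isp5 at -0.57 (SE 0.10, adjusted p = 0.0761 by limma), each lower at both times. With quantile normalization added to the deposited values, limma called these 3 genes, with adjusted p of 0.0244 for car1, 0.0364 for isp5 and 0.0424 for amt1.

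The ammonium transporters Amt1 and Amt2 carry ammonium across the plasma membrane. The amt1 probe set was at 10.46 (1.5 h) and 10.69 (3 h) in wild type, and at 9.87 and 10.04 in the deletion. Both deletion arrays were below both wild-type arrays, by -0.59 at 1.5 h and -0.66 at 3 h, and both lay under their floors, where a difference can be understated. The amt2 probe set was at 11.92 and 11.51 in wild type and at 11.47 and 11.36 in the deletion. Its genotype difference was -0.45 at 1.5 h but -0.15 at 3 h, the latter inside the 0.22 spread. On these arrays the genotypes read closer together for amt2 at 3 h than at 1.5 h, while the amt1 gap was nearly the same at both times. With 1 array per group the amt2 narrowing may be scatter. The gene of the remaining family member, amt3, was dim on every array (8.06 and 8.02 in wild type, 8.37 and 8.41 in the deletion), under the floor throughout.

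Among the amino acid permeases, isp5 was isolated as a gene induced during sexual development. It was at 13.15 and 12.77 in wild type and at 12.43 and 12.34 in the deletion. The deletion arrays were again below both wild-type arrays, by -0.72 (1.64-fold) at 1.5 h and -0.43 at 3 h. At 1.5 h this difference ranked 58 from the lowest of 2331 genes. The aat1 gene, of a further amino acid transporter, read 9.95 and 9.56 in wild type against 9.23 and 9.11 in the deletion. Its 4 values were ordered as those of isp5, with differences of -0.72 and -0.45. All 4 were below the floor, so aat1 entered the counts and medians over 10 genes but none restricted to genes above the floor.

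The put4 gene encodes a permease named for the proline permease of Saccharomyces cerevisiae. It was at 13.42 and 12.94 in wild type and at 13.20 and 12.29 in the deletion. At 1.5 h its genotype difference of -0.21 was within the spread, and at 3 h it was -0.65, or 1.57-fold lower, rank 59 from the lowest of 2337 genes. The put4 level was thus lowest in the deletion at 3 h, with the other 3 arrays spanning 12.94 to 13.42.

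The gene next to put4 in the genome, cat1, encodes a permease for cationic amino acids such as arginine and lysine. Its values were 10.73 and 10.01 in wild type against 10.44 and 10.58 in the deletion, and the wild-type array at 3 h was under its floor. The genotype difference was -0.30 at 1.5 h and 0.57 at 3 h, so the order of the genotypes turned between the times. No other member did this. The turn of 0.87 log2 units was rank 8 from the highest of 2268 genes.

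The oligopeptide transporter gene isp4, named in the same screen as isp5, showed the smallest differences of the 10. It was at 13.90 and 13.87 in wild type and at 14.04 and 13.90 in the deletion. All 4 arrays lay within 0.17 log2 units, less than the spread of a difference, and the genotype differences were 0.14 and 0.03. These values were near the top of the scale, where the highest probe set read 14.84 to 14.89 on the 4 arrays and differences can be compressed.

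The uracil permease gene fur4 had the largest genotype difference of the 10. Its values were 13.33 and 13.66 in wild type against 12.87 and 12.46 in the deletion. The deletion was lower by -0.46 at 1.5 h and by -1.20, or 2.29-fold, at 3 h, the latter rank 10 from the lowest of 2337 genes. Wild type was higher at 3 h than at 1.5 h and the deletion was lower, so the genotype difference changed by -0.74 log2 units, rank 55 from the lowest of 2268 for the change of the difference. In limma's additive fit, which counts that growth as error, fur4 was at -0.83 (SE 0.20, adjusted p = 0.114), lower at both times. The strains also differ by design in ura4, an enzyme gene of uracil nucleotide synthesis that the deletion diploid carries at the pht1 locus, and its probe set differed by -0.69 and -0.49. The part of this in the fur4 difference was not tested.

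Of the catabolic genes, car1 encodes arginase, which splits arginine into ornithine and urea. It was at 12.16 and 11.33 in wild type and at 11.35 and 10.76 in the deletion. The deletion at 1.5 h matched wild type at 3 h to within the spread. The genotype difference was -0.82 (1.76-fold) at 1.5 h, rank 39 from the lowest of 2331 genes, and -0.56 at 3 h, rank 85 of 2337.

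The uga1 gene encodes the GABA transaminase, which moves the amino group of gamma-aminobutyrate to a keto acid. It was at 10.48 and 10.11 in wild type and at 11.32 and 10.26 in the deletion. The deletion at 1.5 h stood above the other 3 arrays, which spanned 10.11 to 10.48. Its difference from wild type was 0.84 (1.79-fold) at 1.5 h, rank 77 from the highest of 2331 genes, and 0.15 at 3 h. Thus the catabolic genes went opposite ways at 1.5 h, car1 lower and uga1 higher without H2A.Z.

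Between 1.5 h and 3 h most of the 10 genes were lower at the later time. The time comparisons use the same 4 arrays as the genotype comparisons and are no separate evidence. In wild type 8 of 10 were lower at 3 h, all but amt1 and fur4, with a median of -0.38 against -0.016 over all genes. Of the 9 above the floor, 7 were lower, beside 54.5% of 2330 genes. None of the 9 changed by 2-fold (3.35% of genes did), and 2, car1 at -0.84 and cat1 at -0.73, were at least 1.5-fold lower (2.62% of genes), ranking 21 and 30 from the lowest.

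In the deletion 8 of 10 were also lower at 3 h, here all but amt1 and cat1, with a median of -0.13 against -0.0015 over all genes. Of the 8 above the floor, whose median was -0.28, 7 were lower, beside 49.9% of 2328 genes. One of the 8, uga1, was 2-fold lower (2.84% of genes differed by 2-fold), at -1.06, rank 9 from the lowest. It and put4, at -0.92 and rank 16, were at least 1.5-fold lower (1.42% of genes), and car1 followed at -0.58. In both genotypes the values of amt2, isp4, isp5, put4, aat1, car1 and uga1 were lower at 3 h, and only amt1 was higher in both, by 0.24 and 0.17. Of these, only put4, car1 and uga1 changed by more than the 0.22 spread in both genotypes. In the deletion amt2 (-0.11), isp4 (-0.14), isp5 (-0.09), aat1 (-0.12) and amt1 were inside the spread, as was isp4 in wild type (-0.03).

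**Figure D3:**
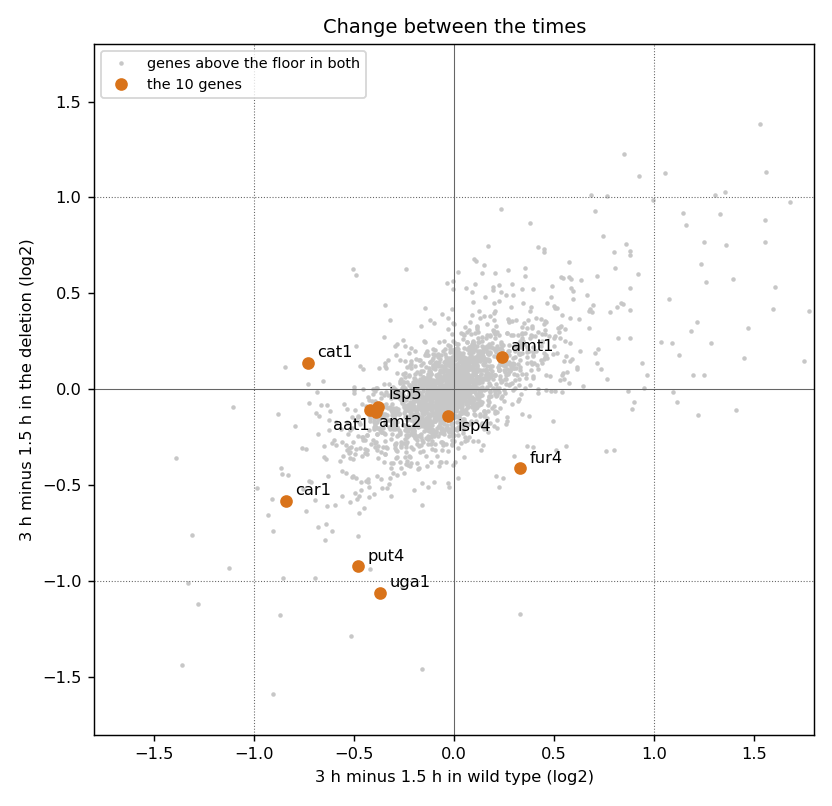
Change from 1.5 h to 3 h in log2 units in wild type (horizontal axis) and in the deletion (vertical axis), with grey points for the 2258 genes above the floor in both, of which 34 lie outside the axes, orange points for the 10 genes and dotted lines at 2-fold. The fur4 point lies in the lower right, at 0.33 and -0.41, cat1 in the upper left, at -0.73 and 0.14, and uga1 passes the lower dotted line.

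The change of the genotype difference from 1.5 h to 3 h was at least 1.5-fold for 3 of the 9 members above the floor, cat1 (0.87), fur4 (-0.74) and uga1 (-0.69), beside 4.32% of 2268 genes in either direction. It was -0.44 for put4 and between -0.11 and 0.30 for the other 6 members, aat1 included. The 10 genes thus did not share 1 time course. For amt1 and isp4 the genotype gap moved by 0.11 or less, and for amt2, isp5, aat1 and car1 it narrowed by 0.25 to 0.30. Such a change takes in 4 arrays, so its spread is larger than the 0.22 of a difference between 2 arrays. The narrowings of these 4 genes may lie inside it. For put4 and fur4 the gap widened, for uga1 it narrowed from 0.84 to 0.15 and for cat1 it turned.

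A search of 2314 genes for the profiles most like those of the members that ranged over at least 1 log2 unit, by Euclidean distance between log2 profiles centred on their own mean over the 4 arrays, gave 3 genes for each. Nearest to fur4 was gln1 (distance 0.24), the gene of glutamine synthetase, which fixes ammonium into glutamine. The gln1 values were 12.85 and 13.24 in wild type against 12.59 and 12.29 in the deletion, so its difference went from -0.26 at 1.5 h to -0.95 at 3 h. After it came mis14 of the kinetochore (0.25) and dph5 (0.32), of diphthamide synthesis. Nearest to car1 were lys1 of lysine synthesis (0.14), mak2 (0.18) and the purine salvage gene hpt1 (0.19), all lower in the deletion at both times. Nearest to put4 were cao2 (0.15), uds1 (0.19) and mmf2 (0.22). For uga1 the nearest, git5 (0.42), plg7 (0.44) and tms1 (0.47), lay farther off than for the other 3 members. With 4 arrays and many genes, such likeness is a description.

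Some of the members are close to each other in the gene order of the RefSeq annotation. The cat1 and put4 genes are adjacent, with 0 genes between them, and isp5 lies 9 protein-coding positions from cat1. The 3 do not share a pattern: at 3 h isp5 and put4 were lower in the deletion and cat1 higher. Beyond put4, at the second and the third position, pcm2 was higher in the deletion by 1.45 and 1.22 and the alpha-galactosidase gene mel1 by 2.01 and 1.50. Both start from wild-type readings under the floor (8.77 and 8.31 for pcm2, 9.59 and 9.22 for mel1), as is pcm2 in the deletion at 3 h (9.53), so the sizes are uncertain. The mel1 probe set was above the floor on both deletion arrays, at 11.60 and 10.71. The neighbour of isp5, mmf2, was lower at both times too (-0.53 and -0.66), and mmf2 is also among the profiles nearest to put4.

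Near fur4 lie urg2, urg3 and urg1, genes known for their strong induction by uracil, at the fifth, the fourth and the third position to one side. They were picked after their values were seen, as were pcm2 and mel1. All 3 were close to the top of the scale on each array, for example urg1 at 14.79 and 14.77 in wild type against 14.77 and 14.65 in the deletion. Their genotype differences were 0.00, 0.05 and -0.02 at 1.5 h and -0.21, -0.18 and -0.12 at 3 h. These were smaller than those of fur4, on a part of the scale where differences can be compressed. At the fifth position to the other side, mam3 was above the floor on every array. It was higher in the deletion by 0.99 at 1.5 h and at -0.12 at 3 h. Of the other measured neighbours at 1 position, atf1 beside isp4, a stress transcription factor gene, was at 0.31 and 0.78, and rpl26 on its other side at -0.02 and 0.01. Beside amt2, mdv1 was at 0.20 and 0.24, while amt2 itself was lower. Next to amt1, aat1, car1 and uga1 the measured neighbours wtf21, alr2, fet4 and smc5 were below the floor on all arrays, at 0.33 and 0.24, 0.05 and 0.00, -0.17 and -0.44, and -0.18 and -0.16.

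**Figure D4:**
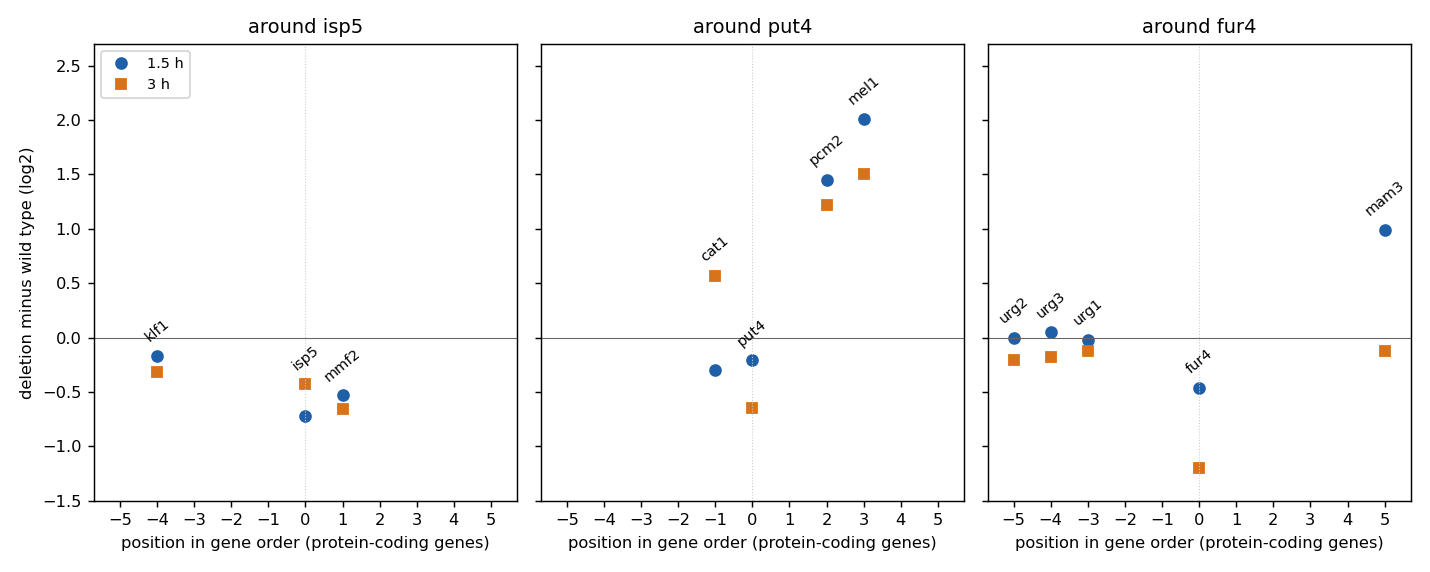
Deletion minus wild type in log2 units at 1.5 h (blue circles) and 3 h (orange squares) for the measured genes within 5 protein-coding positions of isp5, put4 and fur4, plotted by position in the gene order with the member at 0. Beside put4, which is lower at both times, pcm2 and mel1 read higher in the deletion, by 1.22 to 2.01 from wild-type values under the floor. The urg genes beside fur4 lie between -0.21 and 0.05, and mam3 on the other side lies at 0.99 and -0.12.

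Other genes of nitrogen handling were read from 4 lists of names. Of 21 further transporter names, 9 genes were measured, among them mae1, which carries malate rather than a nitrogen source. Their median difference was -0.26 at 1.5 h and -0.19 at 3 h. At each time 6 of 9 were lower, beside 56% and 52.4% of all genes above the floor. Of the 6 above the floor 0 differed by 2-fold, beside 3.47% and 2.74% of all genes above the floor. The lowest was pgt1, of a glutathione transporter, with 11.88 and 11.32 in wild type against 11.06 and 10.79 in the deletion. Its differences of -0.81 and -0.53 were close to those of isp5, and limma's additive fit gave -0.67 (SE 0.10, adjusted p = 0.0670), lower at both times. The vacuolar transporter genes avt5, fnx2 and fnx1 were at -0.54, -0.39 and -0.34 at 1.5 h and at -0.40, -0.19 and -0.32 at 3 h, with avt5 under the floor throughout. The highest was the amino acid permease gene meu22, below the floor on all arrays, at 7.76 and 7.80 in wild type against 8.82 and 9.26 in the deletion. Its wild-type values lay within 1 log2 unit of the deleted pht1 reading, so its differences of 1.06 and 1.46 start from a level at background.

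Of 19 measured genes for enzymes of nitrogen assimilation and amino acid use, 16 were lower in the deletion at 1.5 h, where 56% of all genes above the floor were, and 13 at 3 h, beside 52.4%. The medians were -0.26 and -0.15. At either time 0 differed by 2-fold, beside 3.47% and 2.74% of all genes above the floor. Limma's additive fit called 0 of them, beside 2.12% of all genes. The lowest at 1.5 h were arg7 (-0.61) and pro1 (-0.50), of arginine and proline synthesis, and the highest glt1 (0.40), of glutamate synthase, and arg3 (0.08). At 3 h the lowest were gln1 (-0.95) and arg7 (-0.50), and the highest arg3 (0.13) and then arg6 and car2 (0.10 each). The gene of a second arginase, aru1, was at -0.06 at 1.5 h and within 0.01 of wild type at 3 h, unlike car1. In wild type glt1 was at 12.15 and 13.70, a 1.55 log2 difference between the times, and in the deletion at 12.54 and 13.31.

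Of the TOR complexes and nitrogen signalling, 26 of 32 names were measured, with medians of -0.08 and -0.09. In the deletion 17 of the 26 were lower at 1.5 h and 21 at 3 h, beside 56% and 52.4% of all genes above the floor. Among the 24 above the floor 0 differed by 2-fold at 1.5 h and 1 at 3 h, beside 3.47% and 2.74% of all genes above the floor. The 1 was gtr1, the gene of a Rag GTPase that relays amino acid status to TORC1. It was at 11.94 and 12.01 in wild type and at 11.03 and 10.98 in the deletion, so both deletion arrays were below both wild-type arrays, by -0.91 and -1.02. In limma's additive fit, which called 2.12% of all genes, it was the 1 gene called of 24 tested in that list. Its estimate was -0.97 (SE 0.08, adjusted p = 0.0315 by limma), lower at both times. With the floor at the array median, gtr1 was tested but no longer called. The partner gene of gtr1, gtr2, was at -0.25 and -0.16. The kinase gene ppk18 was at -0.56 and -0.73, isp7, an oxygenase gene tied to amino acid uptake, was at -0.34 and -0.68, and the kinase gene psk1 was the highest, at 0.52 and 0.32. The GATA factor gene gaf1 was at 0.20 and -0.09, and the genes of the TOR kinases, tor1 and tor2, at -0.01 and -0.11 and at -0.27 and -0.17.

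Vacuolar proteases and autophagy genes, which supply amino acids from within starved cells, stood nearest to no difference. Of 18 measured, 9 were lower at 1.5 h and 10 at 3 h, beside 56% and 52.4% of all genes above the floor. The medians were 0.00 and -0.02, and 0 differed by 2-fold, beside 3.47% and 2.74% of all genes above the floor. The range was -0.49 (atg1) to 0.35 (atg17) at 1.5 h and -0.30 (atg1) to 0.38 (atg8) at 3 h. The protease gene psp3 was at 0.09 and -0.01.

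**Figure D5:**
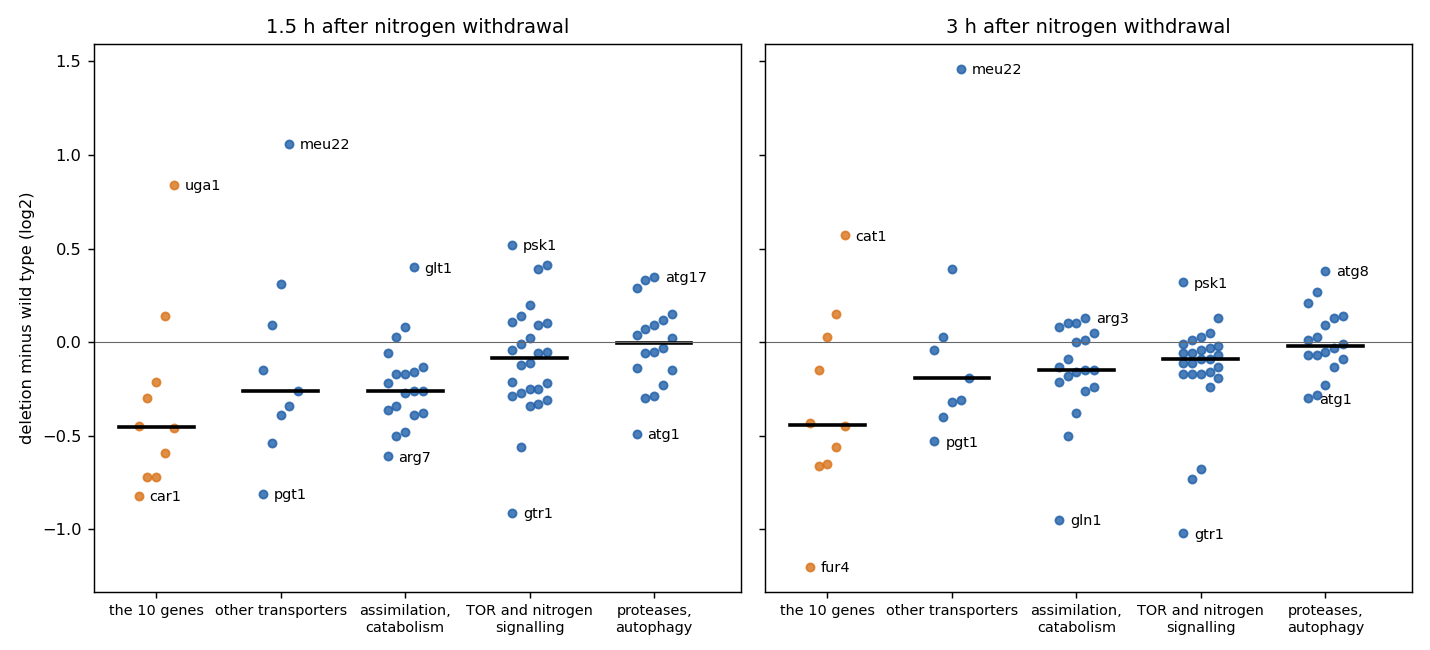
Deletion minus wild type in log2 units (vertical axis) at 1.5 h and 3 h for each measured gene of the 10 nitrogen genes (orange) and of the 4 lists (blue), whether above the floor or not, with black bars at the medians and the lowest and highest gene named. The median of the 10 genes lies at -0.45 and -0.44, and those of the lists between -0.26 and 0.00 at 1.5 h and between -0.19 and -0.02 at 3 h.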

How the data were processed

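Per the labels' protocols, poly(A) RNA was purified and biotin-labelled cRNA hybridized. The deposited table holds log2 values of 4999 probe sets on 4 arrays, made by the authors with RMA per the submitters' processing notes, whose version is not given in the sources used here. Because RMA equalizes the distributions, a value is relative to the rest of its array. Of the probe sets, 2917 had 1 gene symbol, 20 several and 2062 were unnamed here. Symbols were updated by gene identifier (2914 matched) through RefSeq (assembly ASM294v3), which gave names and gene order alone. The brightest set was taken for 14 genes with several.

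Arrays were grouped by sample title. Differences are 1 array minus 1 array. The limma 3.58.1 fit (R 4.3.3) took genes that passed the floor on 2 or more arrays, an intensity trend in the variance and Benjamini-Hochberg adjustment, and its steps were tested on simulated data. The number of arrays limits the precision.

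The members and lists were chosen with earlier results of these data known. Named genes are the members, list genes past 2-fold or among the 2 highest and 2 lowest of a list, the 3 nearest profiles, and adjacent genes; the rest were named after their values were seen. A listed older name that led to an aminopeptidase gene, ape4, was left out. Alternatives covered scaling, floor, fold threshold, probe sets and variance model, run in Python 3.11.15 (pandas 2.3.3, numpy 2.4.6, matplotlib 3.10.9, statsmodels 0.14.6). Sequences were not used here.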

Additional observations from a re-analysis of the deposited data

Results flagged for a closer look

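The cat1 genotype difference had opposite signs at the 2 times, -0.30 at 1.5 h and 0.57 at 3 h, each larger than the 0.22 spread of a difference, so that it moved by 0.87 log2 units. The wild-type array at 3 h, where cat1 was lowest, read 0.12 log2 units under its floor. With 1 array per group this difference between the times was not tested.

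The fur4 value was higher at 3 h than at 1.5 h in wild type, by 0.33, and lower in the deletion, by -0.41, both beyond the spread, which sets the genotypes apart by -0.74 in their change with time. This difference between the genotypes was not tested either.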

How the results depend on the processing

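Each of the 40 member differences was recomputed under 4 alternatives (arrays centred on their medians, quantile normalization, lowess of the difference on the mean level, and the mean of a gene's probe sets). All 160 values moved by less than the 0.22 spread, at most by 0.08 log2 units, and 0 turned sign. Each member had 1 probe set, so the mean of probe sets could move none of its values or counts. Centring shifts all genes of a comparison by the same amount. The scalings moved the median of all genes by less than 0.1. The counts past 2-fold were equal under these settings, without a floor and with a floor at the array median. With a 1.5-fold threshold they went from 0 to 4 at 1.5 h and from 1 to 3 at 3 h between the genotypes, and from 0 to 2 in wild type and from 1 to 2 in the deletion between the times, as a lower threshold must allow. With the floor at the array median, the median change with time in the deletion was -0.41 over 7 members in place of -0.13 over 10 (-0.28 over the 8 above the 25th percentile), since fewer members entered it.

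The additive fit by limma called 0 members as reported (6 at an unadjusted p under 0.05), and 0 without the intensity trend, without a floor or with the floor at the array median. After quantile normalization it called 3, and the cause was not tested. Over all genes it called 49, and under these alternatives 31, 106, 1 and 166 in the same order, so the calls of this fit depend on the setting. Adjusted p of the members ranged from 0.0604 to 0.748 as reported, and the lowest over the alternatives ranged from 0.0244 to 0.1. No paired analysis was possible because the labels give no replicate numbers and each group holds 1 array; the time term of the additive fit matches the genotypes within each time, which is how that fit is already reported. Values under the floor (all of aat1, and some of amt1, cat1 and uga1) carry less signal over background, and differences there may be understated.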
